A study of Homo sapiens with 54 samples.

Results

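A list of 36 genes known to be switched on by androgen in prostate cells, other than the kallikreins, was followed through castration, relapse and enzalutamide treatment in LNCaP xenograft tumors. All 36 symbols were found among the 60642 gene symbols of the expression table. The list was then sorted by how far each gene fell on castration, returned in castrate-resistant tumors and fell again under enzalutamide. LNCaP is a human prostate cancer cell line that depends on androgen for growth, and each of the 54 tumors came from its own NOD-SCID mouse, a strain without a working adaptive immune system. Cells were placed under the skin, and the mice were operated on when the tumor reached about 200 cubic mm. PRE-CX tumors (n = 9) grew in mice that had mock surgery and were taken at 1000 cubic mm. POST-CX tumors (n = 8) were taken 1 week after surgical castration, when serum prostate-specific antigen was at its low point. CRPC tumors (n = 10) were taken from castrated mice once the antigen was back at its earlier level or the tumor reached 1000 cubic mm. Mice of the ENZS (n = 12) and ENZR (n = 15) groups were castrated and then received enzalutamide by mouth at 10 mg/kg on 5 days a week from the time the antigen began to rise. ENZS tumors were taken at the second low point of the antigen and ENZR tumors after relapse on the drug or at 1000 cubic mm. All tumors therefore derive from 1 cell line, all groups except PRE-CX are castrated, and no mouse was sampled at more than 1 stage.

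Androgens such as testosterone and dihydrotestosterone enter prostate cells and raise the transcription of a large set of genes through DNA elements that lie near or far from them. Castration removes the androgen made by the testis, and enzalutamide blocks the action of the androgen that remains. The genes described here code for proteins of many kinds, among them membrane transporters, enzymes of lipid and sugar metabolism, transcription factors and vesicle proteins, and several of them can also be induced by the glucocorticoid receptor, which recognises a very similar DNA element.

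Levels are given in TPM, a measure of transcript abundance relative to all transcripts of the sample, rescaled so that the human genes of each tumor sum to 1000000, and differences between groups as log2 of the level plus 1 TPM. A difference on this scale understates the change of genes near or below 1 TPM. Before rescaling, human genes held 12.1% to 97.5% of all TPM of a tumor (median 89.9%), and 9 tumors were under 80%. A gene is said to have passed the test when its limma p-value, adjusted over all 17593 genes tested, was under 0.05. All 36 members reached the expression minimum, and all 36 also reached it without the PRE-CX tumors. The 4 luminal prostate markers given here (KRT8, KRT18, FOLH1 and HOXB13) had a mean of at least 1 TPM in every group, whereas the basal markers KRT5, KRT14 and TP63 together had group medians of 0.351 to 3.70 TPM. Summed over 22 human genes that mark stroma, vessels, blood and fat, the level had a median of 28.1 TPM in PRE-CX, 36.0 in POST-CX, 37.9 in CRPC, 74.0 in ENZS and 90.6 in ENZR. A few genes carry this sum, as 5 of the 22 had a mean of at least 1 TPM in PRE-CX and 9 in ENZR. From PRE-CX to ENZR, mean COL3A1 went from 0.92 to 28.1 TPM and mean LUM from 0.37 to 9.31. The vessel gene VWF went from 4.85 to 1.21 TPM, and PECAM1, CDH5, KDR, HBB, HBA1 and ADIPOQ were barely detected in any group. The host tissue is of the mouse, and only human genes are given. Summed over 8 cell division genes, the median went from 768 TPM in PRE-CX through 566 and 536 in POST-CX and CRPC to 163 in ENZS and 217 in ENZR. The part of either sum in the results on the 36 genes was not tested. In whole tumors, fewer cells that express a gene and less RNA of it per cell cannot be told apart.

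One week after castration, 31 of the 36 androgen-induced genes were lower than in tumors of mice with mock surgery, 21 of them by at least 1 on the log2 scale, and none was higher. Among all genes tested, 5.62% were lower and 20.6% higher in the same comparison. The median difference of the 36 genes was -1.29, against 0.16 over all genes. PRE-CX tumors were taken at a size endpoint and POST-CX tumors at a set time after surgery, with no harvest size given. This comparison therefore does not separate castration from tumor size or time of growth, and the part of either was not tested. Here and below, a fall on castration means this difference between the groups, whatever its source. The falls were not of 1 size: STEAP4 and HPGD lost most of their transcript, TPD52 and ALDH1A3 fell by less than 1 on the log2 scale, and 5 genes (AZGP1, ADAMTS1, CREB3L4, ZBTB16 and BMPR1B) did not pass the test. For 17 of the 36 genes, every POST-CX tumor lay below the lowest PRE-CX tumor, which was so for 1.17% of all genes tested. Centring each tumor on its median gene moved the median difference of all genes to -0.03 and left 32 of the 36 genes lower, with CREB3L4 added.

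**Figure D1:**
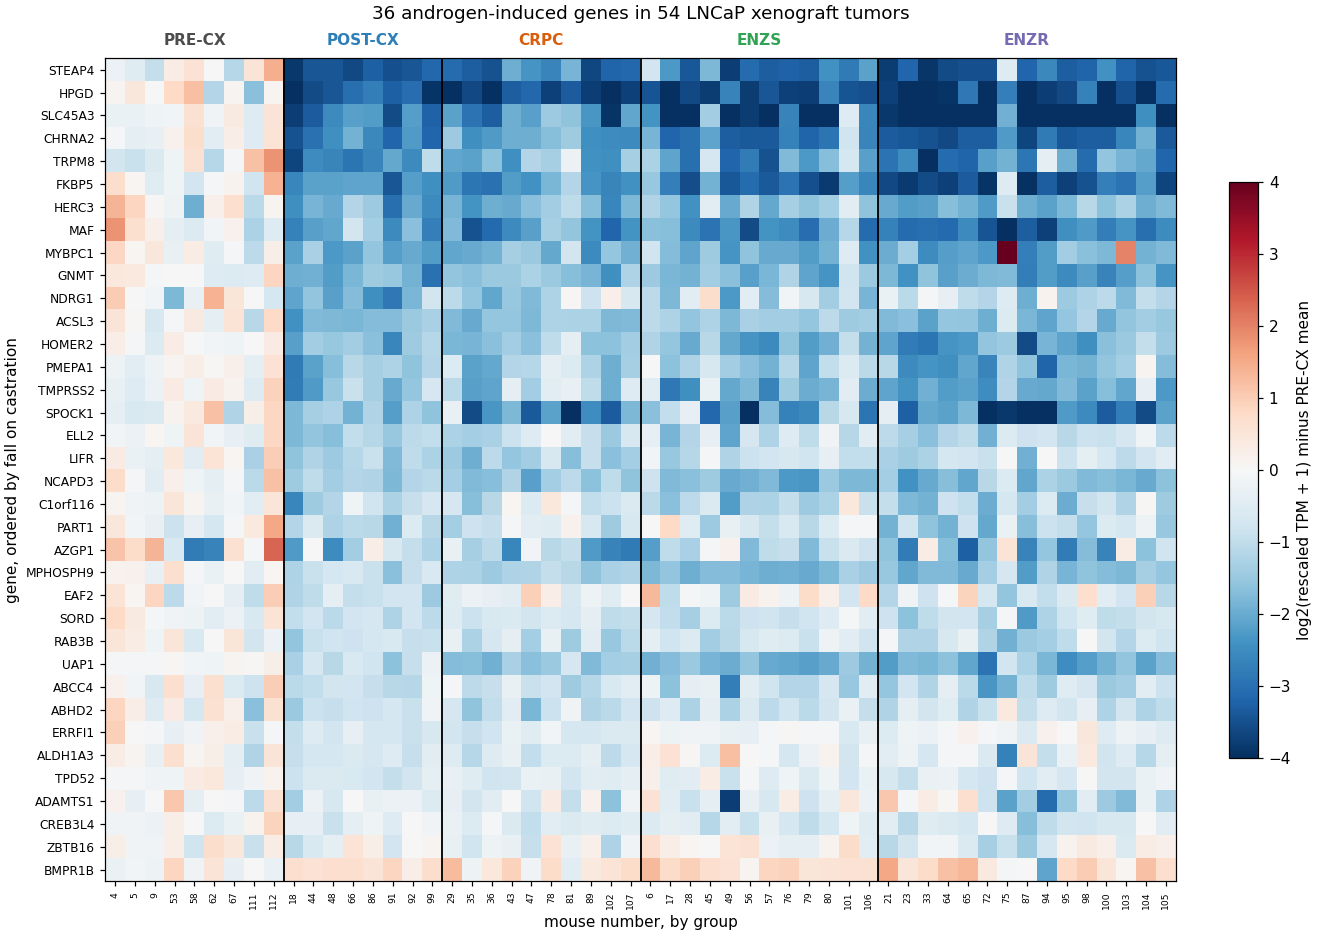
Heat map of the 36 androgen-induced genes (rows, ordered by the size of their fall on castration) in the 54 tumors (columns, by group, with mouse numbers). Color gives log2(rescaled TPM + 1) minus the PRE-CX mean of that gene, limited to 4 in either direction. Blue fills most of the upper rows in all 4 castrated groups, the bottom row (BMPR1B) is mostly pale red, and MYBPC1 is dark red in ENZR mouse 75.

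Membrane proteins and transporters held 4 of the 5 largest falls, and all 6 were lower after castration (median difference -2.63). SLC45A3 (prostein, a transporter-like membrane protein largely restricted to the prostate, at chromosome 1, 205657851 to 205680509 of GRCh38) had a lowest, median and highest level of 121, 161 and 268 TPM in PRE-CX and of 11.9, 23.7 and 38.6 TPM in POST-CX. The corresponding values were 10.7, 39.0 and 63.3 TPM in CRPC, 2.76, 9.92 and 122 TPM in ENZS and 3.03, 7.29 and 45.7 TPM in ENZR. Only 1 of the 45 castrated tumors, ENZS mouse 101 at 122 TPM, came up to the PRE-CX range. SLC45A3 fell by 2.88 ± 0.46 (log2 ± SE, adjusted p = 6.61e-06) on castration. It was 1.04 ± 0.40 lower in ENZS than in CRPC (adjusted p = 0.036) and lay 1.84 below CRPC in ENZR (adjusted p = 0.000922). It was the only member with a difference of at least 1 in the step from CRPC to ENZS. CHRNA2, a subunit of nicotinic acetylcholine receptors, had 7.93, 11.1 and 19.4 TPM (lowest, median, highest) in PRE-CX, 0.127, 0.871 and 2.39 in POST-CX and 1.16, 1.94 and 3.72 in CRPC. It then had 0.222, 0.619 and 6.25 TPM in ENZS and 0, 0.280 and 2.44 in ENZR, where 1 tumor was listed at 0. No castrated tumor reached the PRE-CX range of CHRNA2. Its difference was -2.75 ± 0.27 on castration (adjusted p = 3.08e-11), -0.63 ± 0.23 from CRPC to ENZS (adjusted p = 0.0308) and -1.06 ± 0.22 from CRPC to ENZR (adjusted p = 0.00106).

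STEAP4, a metalloreductase that reduces iron and copper at the membrane, fell most of all members. Its lowest, median and highest levels were 5.81, 13.9 and 39.9 TPM in PRE-CX and 0.0424, 0.401 and 0.712 TPM in POST-CX, a fall of 3.45 ± 0.35 (log2 ± SE, adjusted p = 8.66e-11). It had 0.213, 0.746 and 3.18 TPM in CRPC, 0.109, 0.944 and 7.78 in ENZS and 0.0212, 0.519 and 9.62 in ENZR. Only ENZS mouse 6 (7.78 TPM) and ENZR mouse 75 (9.62 TPM) entered the PRE-CX range. TMPRSS2 (a serine protease of the cell surface, chromosome 21, 41464305 to 41508158) had 359, 452 and 975 TPM in PRE-CX, 73.3, 179 and 326 in POST-CX and 113, 248 and 419 in CRPC. All POST-CX tumors were below the PRE-CX range, but only 6 of 10 CRPC tumors were. In ENZS it had 69.9, 135 and 430.2 TPM and in ENZR 90.7, 121 and 412 TPM, with 14 of 15 ENZR tumors below the PRE-CX range. The castration difference of TMPRSS2 was -1.62 ± 0.32 (adjusted p = 0.00018), and ENZR was lower than CRPC by 0.78 (adjusted p = 0.0263), whereas ENZS against CRPC (-0.54 ± 0.28) did not pass. TRPM8, the cation channel opened by cold and menthol, had a median of 16.4 TPM (7.78 to 67.4) in PRE-CX, 2.25 (0.519 to 8.56) in POST-CX and 4.41 (2.57 to 15.6) in CRPC. It fell by 2.50 ± 0.41 on castration (adjusted p = 1.08e-05), and 1 POST-CX tumor stayed within the PRE-CX range. In ENZS it had 0.746, 3.42 and 11.2 TPM (lowest, median, highest) and in ENZR 0.212, 2.42 and 14.1 TPM, with 14 of 15 ENZR tumors below the PRE-CX range. ABCC4, an exporter of cyclic nucleotides and drugs, changed least of the 6, from 120.4, 200.1 and 431 TPM in PRE-CX to 98.3, 112 and 192 TPM in POST-CX, with 5 of 8 POST-CX tumors below the PRE-CX range (difference -0.86 ± 0.27, adjusted p = 0.0143). Its groups overlapped throughout, with 80.8, 122 and 204 TPM in CRPC, 31, 129.6 and 189 in ENZS and 42.2, 102 and 169 in ENZR.

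**Figure D2:**
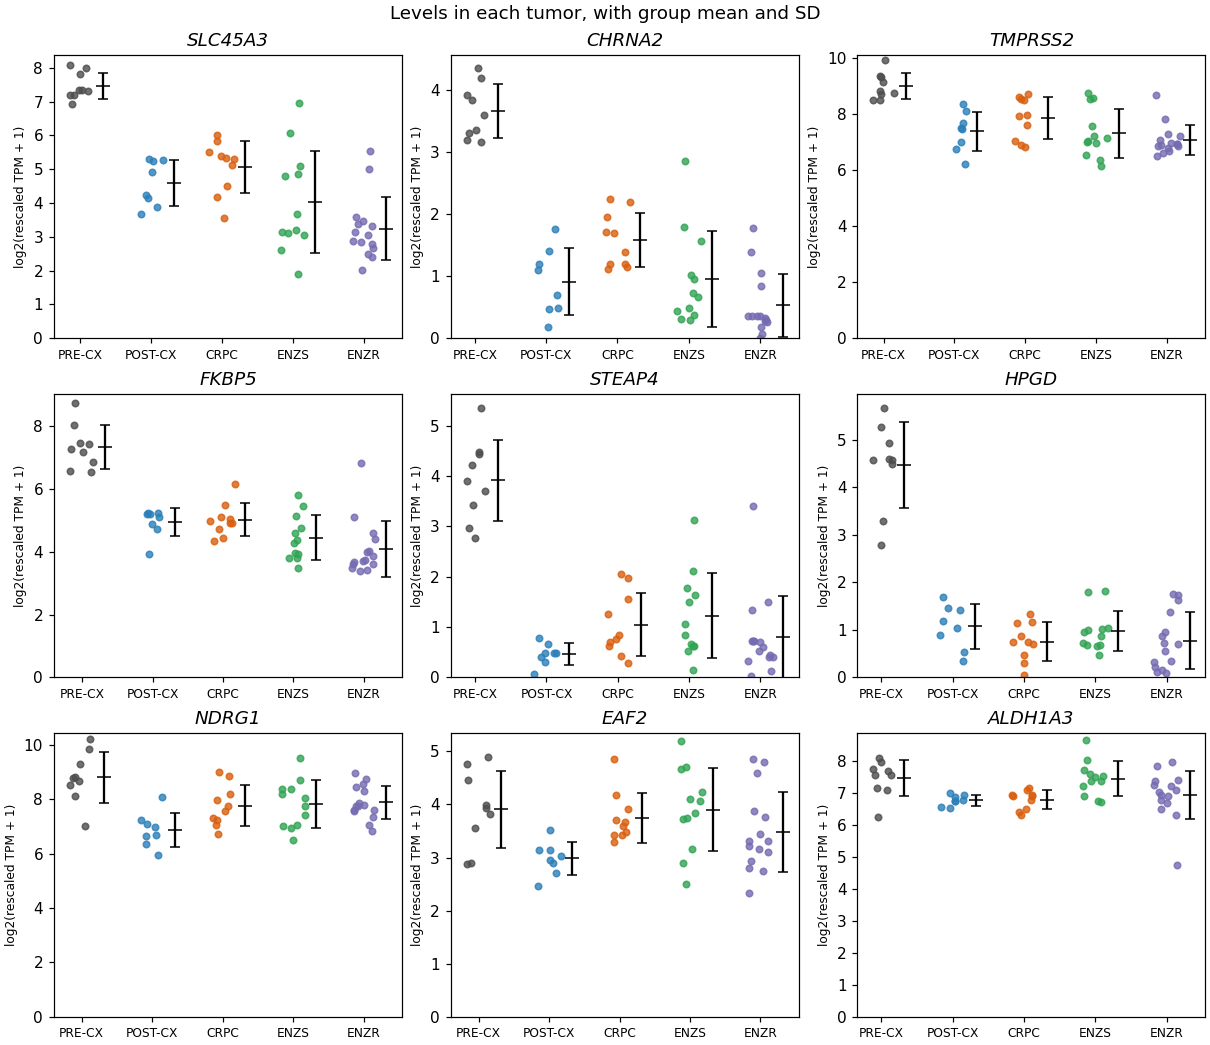
Levels of 9 genes in each tumor (points, log2(rescaled TPM + 1) on the vertical axis, groups on the horizontal axis), with group mean and SD beside the points. SLC45A3, CHRNA2, STEAP4 and HPGD stand apart from PRE-CX in almost all castrated tumors, EAF2 overlaps PRE-CX in every group, and the 2 highest ENZR tumors of SLC45A3 are mice 75 and 104.

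Of the 6 genes for receptors and signalling proteins, 5 were lower after castration. FKBP5, a co-chaperone in the complex of steroid receptors with HSP90 (chromosome 6, 35573590 to 35728583), had a lowest, median and highest level of 91.8, 152 and 423 TPM in PRE-CX and 14.1, 34.5 and 36.7 TPM in POST-CX. It then had 19.4, 29.9 and 70.6 TPM in CRPC, 10.3, 19.0 and 55.2 in ENZS and 9.39, 12.4 and 112 in ENZR. All castrated tumors except ENZR mouse 75 (112 TPM) were below the PRE-CX range. The fall on castration was 2.40 ± 0.33 (adjusted p = 4.8e-07), the change from POST-CX to CRPC 0.08 ± 0.32 (adjusted p = 0.948) and the difference of ENZR from CRPC -0.92 ± 0.28 (adjusted p = 0.0137). NDRG1, which responds to hypoxia and differentiation as well as androgen, had a median of 443 TPM (129.6 to 1186) in PRE-CX and 114 TPM (61.2 to 270.1) in POST-CX, with 5 of 8 POST-CX tumors below the PRE-CX range. Its fall of 1.93 ± 0.36 passed (adjusted p = 7.13e-05). In CRPC, ENZS and ENZR its medians were 202, 239 and 216 TPM, and these 3 groups overlapped the PRE-CX range in most tumors.

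PMEPA1, an inhibitor of TGF-beta signalling, fell from 94.5, 133 and 192 TPM (lowest, median, highest) to 17.5, 46.4 and 59.4 TPM without overlap (-1.64 ± 0.30, adjusted p = 6.05e-05). It had 28.8, 56.0 and 101 TPM in CRPC, 29.0, 55.9 and 129 in ENZS and 13, 36.0 and 140.1 in ENZR, and 1 tumor in each of these groups was within or above the PRE-CX range. LIFR, the receptor for leukemia inhibitory factor, fell from a median of 29.5 (10.6 to 55.2) to 11.2 (7.46 to 14.4) TPM, had 9.70 (6.33 to 17.4) TPM in CRPC, and was higher again in ENZS at 15.1 (8.97 to 27.0) TPM, with 15.8 (6.50 to 27.6) TPM in ENZR. The LIFR difference was -1.29 ± 0.23 on castration (adjusted p = 4.53e-05) and 0.59 ± 0.20 from CRPC to ENZS (adjusted p = 0.0198). ERRFI1, a feedback inhibitor of the EGF receptor, had medians of 45.2, 28.0, 29.7, 42.0 and 40.8 TPM along the 5 groups from PRE-CX to ENZR. The ranges were 24.7 to 89.8, 23.6 to 37.0, 24.2 to 43.0, 30.1 to 49.1 and 30.6 to 63.4 TPM, which overlap. It fell by 0.69 ± 0.14 on castration (adjusted p = 0.000409) and was 0.41 ± 0.13 higher in ENZS than in CRPC (adjusted p = 0.00941), and neither its ENZS nor its ENZR tumors fell below the PRE-CX range. BMPR1B, a type I receptor for bone morphogenetic proteins, was the 1 member whose castration difference was positive, at 0.62 ± 0.27 (adjusted p = 0.0741), with medians of 106 TPM in PRE-CX and 189 TPM in POST-CX. In a fit of the PRE-CX and POST-CX tumors alone it was the only member to pass as higher.

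All 7 genes of metabolism were lower after castration and again in CRPC against PRE-CX. HPGD, which inactivates prostaglandins, had a lowest, median and highest level of 5.94, 23.0 and 50.3 TPM in PRE-CX, 0.265, 1.18 and 2.24 in POST-CX and 0.0320, 0.680 and 1.53 in CRPC. The levels in ENZS (0.381, 0.878 and 2.51 TPM) and ENZR (0.0635, 0.626 and 2.38 TPM) stayed within the same few TPM, and no castrated tumor reached the lowest PRE-CX tumor. HPGD fell by 3.39 ± 0.28 on castration (adjusted p = 7.51e-14) and lay 3.71 below PRE-CX in CRPC (adjusted p = 2.07e-16). GNMT, which uses S-adenosylmethionine to methylate glycine, went from 15.2, 22.7 and 42.2 to 1.99, 5.40 and 7.84 TPM (-1.96 ± 0.20, adjusted p = 2.39e-10), and all 45 castrated tumors were below the PRE-CX range. In CRPC, ENZS and ENZR it had 3.32, 7.24 and 9.14 TPM, 3.60, 6.13 and 12.7 TPM and 2.47, 4.23 and 6.89 TPM. Its values may share reads with the read-through transcript CNPY3-GNMT. UAP1, which makes UDP-N-acetylglucosamine for glycosylation, had 283, 307 and 368 TPM in PRE-CX, 100.5, 173 and 265 in POST-CX and 82.6, 105 and 198 in CRPC, and it too was below the PRE-CX range in all 45 castrated tumors. Its step from POST-CX to CRPC was a further decline in the estimate (-0.58 ± 0.17, adjusted p = 0.132), which did not pass over all tumors. Without the 9 tumors of low human total that step was -0.76 and passed.

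ACSL3, which activates long-chain fatty acids, fell from 161, 364 and 592 to 64.2, 102 and 141 TPM (-1.76 ± 0.18, adjusted p = 2.39e-10), with no overlap between the groups. SORD, the sorbitol dehydrogenase of the polyol pathway, fell by 0.92 ± 0.18 (adjusted p = 0.000212) from a median of 404 TPM (290.3 to 776) to 243 TPM (189 to 284), again without overlap. The later groups reached back into the PRE-CX range, with 223, 287 and 341 TPM in CRPC, 178, 259 and 424 in ENZS and 93.2, 253 and 420.3 in ENZR. It has a near-identical pseudogene, so that its reads could be split. The lipid hydrolase gene ABHD2 fell by 0.83 ± 0.24 (adjusted p = 0.00814) although no POST-CX tumor was below its wide PRE-CX range of 91.3 to 531 TPM. ALDH1A3, which makes retinoic acid, had medians of 187 TPM (74.5 to 274) in PRE-CX, 108 (91.6 to 126) in POST-CX and 119 (78.1 to 143) in CRPC, then 171 TPM (104 to 404) in ENZS and 130.2 (25.6 to 249) in ENZR. Its fall on castration was 0.68 ± 0.26 (adjusted p = 0.0424), and its level in ENZS was 0.65 ± 0.23 above CRPC (adjusted p = 0.021).

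Among the 5 transcription genes, 3 were lower after castration. MAF, a basic leucine zipper factor, had 9.16, 21.7 and 85.4 TPM (lowest, median, highest) in PRE-CX and 2.69, 4.68 and 13.7 TPM in POST-CX, with 7 of 8 POST-CX tumors below the PRE-CX range. It fell by 2.00 ± 0.33 (adjusted p = 1.12e-05), and all CRPC and ENZR tumors were below the PRE-CX range. The values were 1.22, 3.70 and 8.80 TPM in CRPC, 1.08, 3.51 and 10.1 in ENZS and 0.285, 2.04 and 4.17 in ENZR. ELL2, an RNA polymerase II elongation factor, fell from 36.2, 46.9 and 91.3 to 13.8, 19.6 and 25.3 TPM without overlap (-1.34 ± 0.22, adjusted p = 1.67e-05). EAF2, a partner of the ELL factors, fell from a median of 14.3 TPM (6.36 to 28.6) to 6.98 TPM (4.54 to 10.5) by 0.93 ± 0.31 (adjusted p = 0.0229), and in CRPC it had a median of 11.4 TPM (8.75 to 28.0), with no CRPC tumor below the PRE-CX range. CREB3L4, a leucine zipper factor of the endoplasmic reticulum, did not pass on castration (-0.35 ± 0.16, adjusted p = 0.105) but was lower in CRPC than in PRE-CX (-0.50 ± 0.15, adjusted p = 0.0174). ZBTB16, a zinc finger repressor that glucocorticoids also induce, had medians between 10.3 and 18.9 TPM in all 5 groups and passed no test.

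The 6 genes for vesicle and cell structure proteins all fell. MYBPC1, a myosin-binding protein of slow muscle, had 2.54, 6.76 and 11.9 TPM (lowest, median, highest) in PRE-CX, 0.486, 0.643 and 1.94 in POST-CX, 0.256, 0.935 and 3.35 in CRPC and 0.366, 0.876 and 4.08 in ENZS. In ENZR the lowest and median were 0.0823 and 0.943 TPM, while mouse 75 had 122 TPM and mouse 103 had 27.9 TPM, both above every PRE-CX tumor. The next highest ENZR tumor had 1.86 TPM. The castration difference of MYBPC1 was -1.99 ± 0.51 (adjusted p = 0.00293). HOMER2, a scaffold protein of synapses and signalling, went from 70.4, 101 and 129.6 to 16.2, 36.7 and 46.6 TPM (-1.66 ± 0.25, adjusted p = 2.35e-06), and all ENZS and ENZR tumors were below the PRE-CX range. HOMER2 had 27.9, 32.5 and 80.5 TPM in CRPC, 16.8, 26.9 and 53.3 in ENZS and 7.82, 23.3 and 52.7 in ENZR. MPHOSPH9, a centrosomal phosphoprotein, declined in the estimates of 3 successive groups, with 60.7, 81.9 and 129 TPM in PRE-CX, 25.4, 44.6 and 54.6 in POST-CX, 26.7, 35.2 and 42.1 in CRPC and 19.7, 23.2 and 33.4 in ENZS. The fall on castration (-0.94 ± 0.15, adjusted p = 5.89e-06) and the difference of ENZS from CRPC (-0.50 ± 0.13, adjusted p = 0.00279) passed, and every castrated tumor was below the PRE-CX range. NCAPD3, a condensin II subunit, fell by 1.28 ± 0.21, RAB3B, a small GTPase of secretory vesicles, by 0.91 ± 0.21, and TPD52, a trafficking protein, by 0.68 ± 0.14, with adjusted p of 1.4e-05, 0.00137 and 0.00022.

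Of 3 secreted or matrix proteins, only SPOCK1 fell after castration. SPOCK1, a proteoglycan of the matrix, had 46.1, 119.6 and 241 TPM (lowest, median, highest) in PRE-CX, 22.3, 38.3 and 45.9 in POST-CX and 1.21, 19.4 and 87.0 in CRPC. PRE-CX and POST-CX did not overlap, although their nearest tumors were at 46.1 and 45.9 TPM, and 9 of 10 CRPC tumors were below the PRE-CX range. SPOCK1 fell by 1.57 ± 0.49 on castration (adjusted p = 0.015). It had 5.68, 27.5 and 85.1 TPM in ENZS and 3.36, 15.0 and 84.1 in ENZR. AZGP1, a secreted lipid-mobilising glycoprotein, varied from 1.3 to 80.3 TPM within PRE-CX, and its difference of -1.09 ± 0.54 did not pass (adjusted p = 0.127), while CRPC against PRE-CX did (-1.52 ± 0.51, adjusted p = 0.0282). AZGP1 medians were 23.4 TPM in PRE-CX, 6.57 (1.83 to 18.4) in POST-CX, 5.91 (1.26 to 14.1) in CRPC, 7.24 (2.54 to 17.2) in ENZS and 4.21 (0.679 to 22.8) in ENZR, and almost all of these tumors lay within the PRE-CX range. The matrix protease gene ADAMTS1 passed no test, with medians of 172 TPM in PRE-CX and 144 TPM in POST-CX.

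The remaining 3 genes all fell. HERC3, a HECT-type ubiquitin ligase, had 17.0, 75.1 and 178 TPM (lowest, median, highest) in PRE-CX and 7.64, 16.3 and 29.9 TPM in POST-CX, with 5 of 8 POST-CX tumors below the PRE-CX range. It then had 10.4, 18.8 and 33.6 TPM in CRPC, 12.1, 24.7 and 51.7 in ENZS and 13.4, 17.9 and 36.5 in ENZR. Its fall on castration was 2.07 ± 0.29 (adjusted p = 6.72e-07). The long non-coding RNA PART1 had 4.74, 8.75 and 29.5 TPM in PRE-CX, 1.76, 3.85 and 6.08 in POST-CX and 2.86, 5.64 and 10.9 in CRPC, then 2.79, 6.30 and 17.0 in ENZS and 1.5, 4.36 and 8.11 in ENZR. The number of PART1 tumors below the PRE-CX range was 6 of 8 in POST-CX, 3 of 10 in CRPC, 3 of 12 in ENZS and 9 of 15 in ENZR, and its fall was 1.10 ± 0.28 (adjusted p = 0.00288). C1orf116, named for its place on chromosome 1 and known to be regulated by androgen, had 47.5, 60.8 and 91.4 TPM in PRE-CX, 9.88, 31.2 and 57.2 in POST-CX, 19.3, 42.0 and 87.5 in CRPC, 13, 28.6 and 87.1 in ENZS and 15.7, 32.2 and 67.9 in ENZR. It fell by 1.13 ± 0.28 (adjusted p = 0.00225), and 1 to 3 tumors of each castrated group stayed within the PRE-CX range.

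Promoter sequences of RefSeq (GRCh38.p14, from 250 bases before to 50 bases after the start) were found for 27 of the 36 genes. They were searched on both strands for the 6-letter motif AGAACA, which reads TGTTCT on the other strand and makes up 1 arm of the androgen response element. The motif was present in 3 of the 27 promoters (11.1%) and in 5192 of all 35116 promoters (14.8%). A pair of arms 3 bases apart was found in none of the 27 and in only 1 of all 35116 promoters, so its absence does not set the 27 apart. The 3 promoters are shown because they hold this motif at genes that fell together on castration (FKBP5, MYBPC1 and PMEPA1), with the motif in capitals. FKBP5 lies at chr6:35728534-35728833 on the minus strand, MYBPC1 at chr12:101594721-101595020 on the plus strand and PMEPA1 at chr20:57711423-57711722 on the minus strand.
FKBP5: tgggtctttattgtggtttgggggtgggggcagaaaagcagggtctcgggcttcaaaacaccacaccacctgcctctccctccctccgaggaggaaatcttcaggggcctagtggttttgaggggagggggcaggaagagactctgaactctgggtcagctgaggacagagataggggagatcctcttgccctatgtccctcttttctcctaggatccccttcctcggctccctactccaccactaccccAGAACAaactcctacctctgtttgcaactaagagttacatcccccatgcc
MYBPC1: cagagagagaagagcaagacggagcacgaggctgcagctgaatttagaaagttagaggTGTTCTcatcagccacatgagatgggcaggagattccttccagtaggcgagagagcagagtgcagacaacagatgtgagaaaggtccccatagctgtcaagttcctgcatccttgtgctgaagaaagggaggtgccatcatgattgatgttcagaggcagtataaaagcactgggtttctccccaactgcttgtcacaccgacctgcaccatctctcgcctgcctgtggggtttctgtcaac
PMEPA1: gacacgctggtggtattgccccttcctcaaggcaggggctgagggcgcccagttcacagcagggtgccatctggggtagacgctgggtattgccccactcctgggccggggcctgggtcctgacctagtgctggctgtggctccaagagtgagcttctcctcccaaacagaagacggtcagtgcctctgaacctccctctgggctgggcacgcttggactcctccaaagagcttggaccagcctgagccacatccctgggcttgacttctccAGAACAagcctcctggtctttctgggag
A match of these letters is a description of the sequence only, and no binding to DNA was measured here.

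From POST-CX to CRPC, when serum antigen had recurred or tumors had grown, most of the genes that had fallen stayed below their PRE-CX level. None of the 36 passed the test in either direction with limma, and of all genes tested 0.0568% were lower and 0.00568% higher. An unadjusted p under 0.05 was found for 7 of the 36 genes and for 2259 of all 17593 genes tested. The largest positive estimates were those of NDRG1 (0.89 ± 0.35, adjusted p = 0.259), TRPM8 (0.78 ± 0.40), EAF2 (0.77 ± 0.30) and CHRNA2 (0.67 ± 0.26), and the largest negative one was that of SPOCK1 (-1.11 ± 0.48, adjusted p = 0.315). Of the 31 genes that fell on castration, 23 had a positive estimate of return. The share of all genes with a positive estimate was not computed, and the median difference was 0.13 for the 36 genes, against -0.07 over all genes. Over all 31, the median return was 12.8% of the fall. That share ran from -70.9% for SPOCK1 to 82.7% for EAF2, and EAF2 alone exceeded 50%. For 30 of the 31 genes the upper 95% limit of the return was smaller than the estimated fall. That count takes no account of the error of the fall itself. Compared directly with PRE-CX, 28 of the 31 passed as lower in CRPC. The fall and the return share the POST-CX tumors, so that a low POST-CX mean raises both.

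Set against PRE-CX, 30 of the 36 genes were lower in CRPC and none was higher (background 5.87% lower and 14.2% higher), and the median difference was -1.25. This comparison shares its PRE-CX tumors with the one on castration. The genes that did not pass were C1orf116, PART1, EAF2, ADAMTS1, ZBTB16 and BMPR1B. EAF2 came closest to its PRE-CX level among the genes that had fallen (-0.16 ± 0.30, 95% interval -0.75 to 0.43), whereas HPGD (-3.71 ± 0.26), STEAP4 (-2.86 ± 0.33), SPOCK1 (-2.68 ± 0.47), MAF (-2.39 ± 0.31), SLC45A3 (-2.39 ± 0.43) and FKBP5 (-2.32 ± 0.31) stayed furthest below it. Every CRPC tumor was below the PRE-CX range for 10 of the 36 genes, against 0.534% of all genes tested. With TPM as deposited, 20 of the 36 genes were lower.

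**Figure D3:**
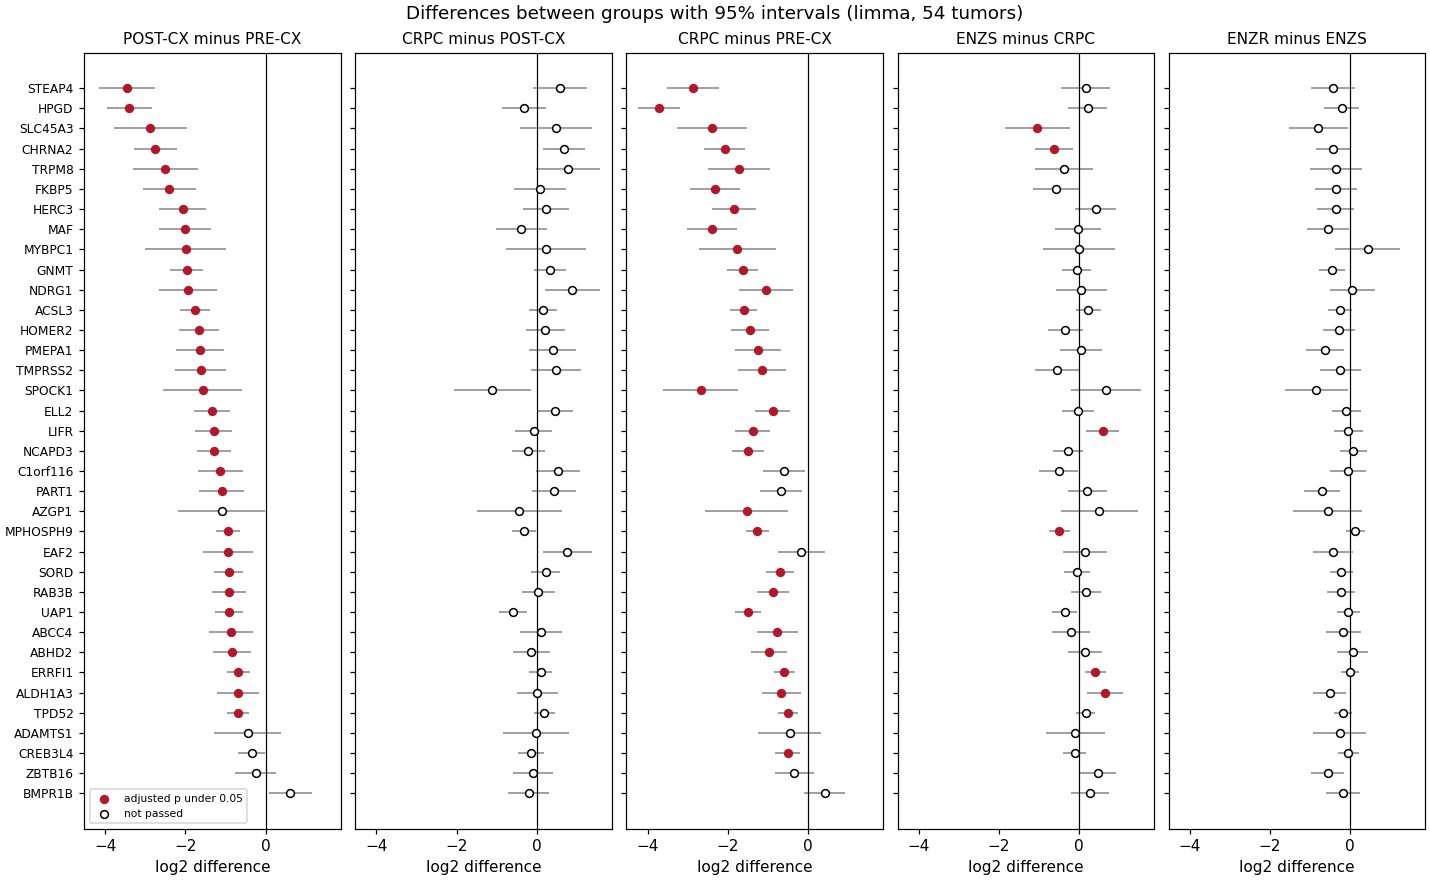
Log2 differences of the 36 genes (rows, ordered by the fall on castration) for 5 pairs of groups, with 95% intervals from limma. Filled red points passed at an adjusted p under 0.05 and open points did not. Points lie left of 0 for 35 genes in the first panel and cluster around 0 in the second, and the third panel, which shares the PRE-CX tumors with the first, has 30 filled points.

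Few of the 36 genes differed between ENZS and CRPC tumors. Treatment began as the antigen started to rise, so the CRPC tumors are a castrated group without the drug and not the state before treatment. In ENZS against CRPC, SLC45A3, CHRNA2 and MPHOSPH9 were lower and LIFR, ERRFI1 and ALDH1A3 were higher, and the other 30 genes did not pass. Of all genes tested, 6.41% were lower and 31.4% higher in this comparison, and the median over all genes was 0.21, against 0.02 for the 36 genes. These counts depend on the scaling. After centring each tumor on its median gene, 6 of the 36 genes were lower (C1orf116, NCAPD3 and UAP1 besides the 3 above) and none was higher. With TPM as deposited none passed in either direction, and 4 had an unadjusted p under 0.05, beside 3865 of all 17131 genes tested. Without the 9 tumors of low human total, 1 gene (MPHOSPH9) was lower and 3 were higher. In a fit of the CRPC and ENZS tumors alone, 2 genes were lower and 3 higher, and 2 of the 6 main results no longer passed, SLC45A3 among them. Every ENZS tumor was below the PRE-CX range for 7 of the 36 genes (CHRNA2, GNMT, HOMER2, HPGD, MPHOSPH9, UAP1 and FKBP5), against 2.94% of all genes tested.

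From ENZS to ENZR, at relapse on the drug, none of the 36 genes passed in either direction with limma, and 9 had an unadjusted p under 0.05. None of all genes tested passed either (background 0% in both directions, 1752 genes with an unadjusted p under 0.05). The estimates were negative for 31 of the 36 genes, with a median of -0.25, against -0.04 over all genes. The share of all genes with a negative estimate was not computed. Genes measured in the same tumors are not independent, so the count of signs is a description only. Without the 9 tumors of low human total the median of the 36 was -0.19. In that fit 4 of them had an unadjusted limma p under 0.05, beside 2424 of 17284 genes tested. Over all tumors, the largest estimates were those of SPOCK1 (-0.85 ± 0.39, adjusted p = 0.468), SLC45A3 (-0.79 ± 0.36, adjusted p = 0.466), PART1 (-0.70 ± 0.22, adjusted p = 0.31), PMEPA1 (-0.63 ± 0.24, adjusted p = 0.393) and AZGP1 (-0.56 ± 0.43, adjusted p = 0.689). In ENZR against CRPC, 8 genes were lower and 2 higher (background 5.45% and 21.2%). The lower genes were SLC45A3, CHRNA2, FKBP5, TMPRSS2, HOMER2, GNMT, MPHOSPH9 and UAP1, with differences from -1.84 to -0.37, and the higher ones LIFR (0.54 ± 0.19) and ERRFI1 (0.41 ± 0.12). Centring gave 12 lower and 0 higher, TPM as deposited gave 3 lower (SLC45A3, CHRNA2 and FKBP5) and 0 higher, and leaving out the 9 tumors of low human total gave 2 lower (SLC45A3 and CHRNA2) and 2 higher. Those 9 tumors are POST-CX mice 48 and 91, CRPC mouse 43, ENZS mouse 17 and ENZR mice 23, 72, 87, 98 and 103. For 8 of the 36 genes every ENZR tumor was below the PRE-CX range, against 0.784% of all genes.

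Whether the genes moved differently at the 2 relapses and the 2 responses was tested directly. The change from ENZS to ENZR was not shown to differ from that from POST-CX to CRPC for any of the 36 genes (background 0.102% lower and 0.0966% higher). An unadjusted limma p under 0.05 was found for 11 of the 36 genes and for 2382 of all 17593 genes tested. The change from CRPC to ENZS was above that from PRE-CX to POST-CX for 22 of the 36 genes and below it for none (background 3.44% and 2.05%), with a median of 1.32. The difference for HERC3 was 2.48 ± 0.39 (adjusted p = 2.62e-05), and those of SPOCK1 and TRPM8 were 2.25 ± 0.66 and 2.13 ± 0.54 (adjusted p = 0.0319 and 0.0127). For TMPRSS2 (1.08 ± 0.42, adjusted p = 0.122) and SLC45A3 (1.83 ± 0.61, adjusted p = 0.0616) the 2 steps were not shown to differ. The steps start from unlike levels. For STEAP4, HPGD and CHRNA2 the CRPC mean, at 1.05, 0.76 and 1.58 on the log2 scale, was smaller than the castration fall, so a second fall of that size was not possible and the sign of their difference was fixed by the starting level. TRPM8 (CRPC mean 2.56, castration fall 2.50) and MAF (2.23 and 2.00) had little room for an equal second fall, which limits how their differences can be read.

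Ordered by the smallest of 3 steps (fall on castration, return in CRPC, fall under enzalutamide), the leading genes were CHRNA2 (0.63), C1orf116 (0.50), SLC45A3 (0.49), TMPRSS2 (0.48), TRPM8 (0.37), HOMER2 (0.21), ABCC4 (0.11), FKBP5 (0.08), GNMT (0.06) and SORD (0.06). In 12 of the 36 genes all 3 estimates had the direction of such a cycle, and in none did all 3 pass. The share of all genes with this pattern was not computed, so the count of 12 is a description only. The steps are differences between groups of separate mice and share the POST-CX and CRPC tumors. The last is CRPC minus ENZS, and CRPC is not the state before the drug. In the fit of all tumors, CHRNA2 and SLC45A3 passed the first and the last step, and their return did not pass (adjusted p = 0.257 and 0.674). SLC45A3 did not pass the last step in a fit of the CRPC and ENZS tumors alone. C1orf116 passed the first only, with medians of 60.8, 31.2, 42.0, 28.6 and 32.2 TPM along the 5 groups.

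Single tumors differed in how many of the 36 genes were low. The number below the PRE-CX range was 21 to 31 per tumor in POST-CX, 15 to 26 in CRPC, 14 to 27 in ENZS and 16 to 30 in ENZR. The median share of all genes tested below that range was 6.38%, 9.31%, 11.3% and 11.3% per tumor in these groups. ENZS mice 6 and 101 had the fewest, at 14 genes each, followed by CRPC mouse 78 at 15 and ENZR mouse 104 at 16. In ENZS, mice 6, 45 and 101 had the 3 highest levels of SLC45A3 (32.8, 65.9 and 122 TPM), TMPRSS2 (386, 430 and 371 TPM) and FKBP5 (55.2, 42.8 and 34.0 TPM). In ENZR, mice 75 and 104 had the 2 highest levels of the same genes, with 45.7 and 31.1 TPM of SLC45A3, 226 and 412 TPM of TMPRSS2, and 112 and 33.7 TPM of FKBP5. Their summed cell division level was 716 and 576 TPM, against an ENZR median of 217 TPM. Their summed stroma, vessel, blood and fat markers were at 22.7 and 69.5 TPM, mouse 75 being the lowest of the group, against a median of 90.6 TPM. In ENZS mice 6, 45 and 101 the cell division sums were 180.0, 314 and 194 TPM (median 163) and the marker sums 68.6, 46.0 and 43.6 TPM (median 74.0), the last 2 being the lowest of the group. The part of either sum in these levels was not tested. The 2 tumors with the lowest human totals, POST-CX mouse 91 (27.9%) and ENZR mouse 87 (12.1%), had 26 and 30 of the 36 genes below the PRE-CX range.

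**Figure D4:**
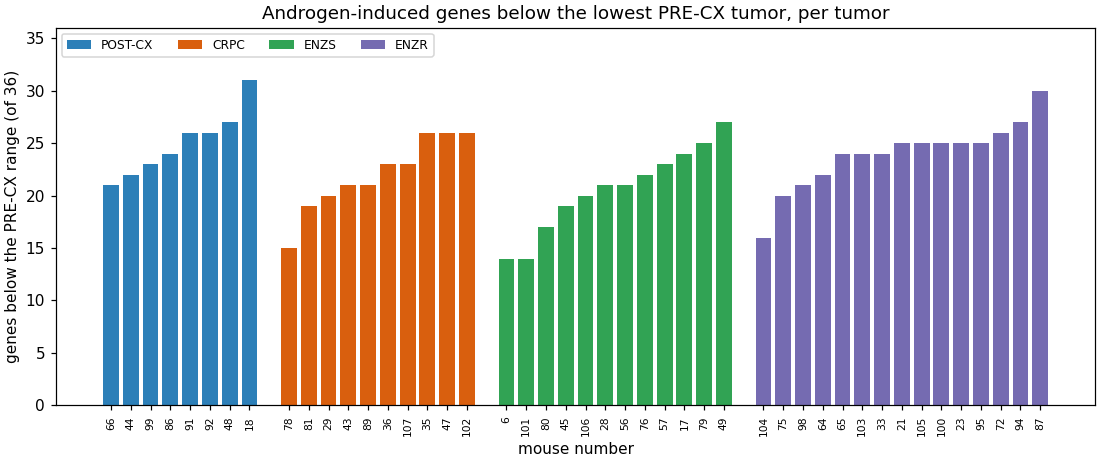
Number of the 36 genes below the lowest PRE-CX tumor in each castrated tumor (bars, mouse numbers on the horizontal axis, ordered within each group). The bars run from 14 to 31, and POST-CX has none under 21.

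Other parts of the androgen pathway were read from lists set beside the 36 genes. Of 12 genes for transcription partners, coregulators and chaperones of steroid signalling, NCOA1 (0.96 ± 0.20, adjusted p = 0.000421), NCOA2 (0.99 ± 0.22, adjusted p = 0.000641) and NCOA3 (0.70 ± 0.15, adjusted p = 0.000458), which code for coactivators, were higher after castration and none was lower. These 3 of 12 stand beside 20.6% of all genes, and with TPM as deposited none of the 12 passed. None of the 12 passed from POST-CX to CRPC. From CRPC to ENZS 5 of the 12 were higher, beside 31.4% of all genes, but with TPM as deposited none was higher and after centring 1 was higher and 2 were lower. Of 5 further androgen-induced genes (KLK2, KLK3, KLK4, CAMKK2 and PLPP1), 4 were lower after castration (1 with TPM as deposited), none passed from POST-CX to CRPC, and 1 (CAMKK2) was lower in CRPC than in PRE-CX. In ENZS against CRPC 2 of the 5 were lower, beside 6.41% of all genes. In ENZR against CRPC 4 of the 5 were lower, beside 5.45% of all genes. KLK3, which codes for prostate-specific antigen, had 2129, 4679 and 6769.6 TPM in PRE-CX, 604, 1529 and 3203 in POST-CX and 2825, 4689.5 and 6828 in CRPC. Its CRPC level differed from PRE-CX by 0.05 ± 0.49 (95% interval -0.93 to 1.03), beside -2.32 ± 0.31 for FKBP5 and -1.14 ± 0.30 for TMPRSS2 in the same comparison. These differences between genes were not tested against each other. Serum levels of prostate-specific antigen also set when POST-CX and ENZS tumors were harvested, and CRPC and ENZR tumors not taken for their size. The fall and return of KLK3 are therefore partly built into the groups. Whether this timing also selected on the levels of FKBP5, TMPRSS2 or the other androgen-induced genes was not tested.

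Of 7 genes of the glucocorticoid receptor pathway (NR3C1, TSC22D3, PER1, SGK1, KLF9, DUSP1 and CEBPD), 3 were higher in ENZS than in CRPC and none was lower, beside 31.4% higher among all genes, and 1 of the 7 was higher both after centring and with TPM as deposited. NR3C1, the glucocorticoid receptor gene, had 0.221, 0.626 and 1.14 TPM in CRPC, 1.5, 3.54 and 10.8 in ENZS and 0.322, 4.32 and 15.3 in ENZR, with no overlap between CRPC and ENZS (1.64 ± 0.29, adjusted p = 4.51e-05). Of the genes above that glucocorticoids can also induce, ERRFI1 was higher in ENZS than in CRPC, while FKBP5 (-0.56 ± 0.29, adjusted p = 0.119) and ZBTB16 (0.47 ± 0.23, adjusted p = 0.0889) did not pass. Of 8 cell division genes, none passed on castration and 8 were lower in both ENZS and ENZR than in CRPC (background 6.41% and 5.45%). Of the 22 genes that mark stroma, vessels, blood and fat, 9 could be tested, and 4 of them were higher in ENZS than in CRPC, beside 31.4% of all genes.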

How the data were processed

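Polyadenylated, strand-specific RNA libraries of 54 tumors were sequenced to about 40 M read pairs each, per the labels. The authors checked reads with FastQC (0.11.9), trimmed them with Trim Galore (0.6.5), aligned them with STAR (2.7.2b) to a combined human GRCh38 and mouse reference, and quantified them with RSEM (1.3.3), according to the methods and the submitters' processing notes. The deposited TPM, held per human gene symbol, leave out mouse genes and keep no read depth, so no counting interval is given, and the precision of a value rests on the spread between tumors.

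Each tumor was rescaled to 1000000, and genes were kept where 8 or more tumors had at least 1 TPM. One limma fit (3.58.1, R 4.3.3) of the 5 group means over all tumors, on log2(rescaled TPM + 1) with the trend option, gave 8 contrasts with Benjamini-Hochberg adjustment over 17593 genes. The fit was tested on simulated data. No columns were identical (highest r between tumors 0.994). No mouse number recurs between groups, and no batch is named in the labels. Each group holds separate mice.

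The members, gene lists and rules were chosen with earlier results of these data known, and a few listed genes are not reported here. Genes were given values in all 5 groups by rule: the 10 with the largest smallest step of the cycle, the 5 with the largest fall not yet named, any that passed against the androgen-induced direction, and the 5 with the largest difference between ENZR and ENZS. The others are given in fewer groups or by medians. Alternatives were TPM as deposited, centring on the median gene, a pseudocount of 0.1, no expression filter, a mean of at least 5 TPM, limma without trend or with its robust option, fits of the compared groups alone, and fits without the 2 tumors of lowest human total. A fit without the 9 tumors under 80% was added after seeing the data. Gene positions and promoters are those of RefSeq (GRCh38.p14). ADAMTS1, CHRNA2, ELL2, NDRG1, SORD, SPOCK1, TMPRSS2, TPD52 and ZBTB16 had no promoter entry.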

Additional observations from a re-analysis of the deposited data

Results flagged for a closer look

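In 108 sets of 1 gene in 1 group of at most 10 tumors, 6 held a tumor far from the rest, a gap that chance gives in about 1 set in 20. These were ABCC4 in POST-CX mouse 99 (192 TPM, next 129.8), ADAMTS1 in POST-CX mouse 18 (65.4 TPM, next 111), FKBP5 in POST-CX mouse 91 (14.1 TPM, next 25.5), GNMT in CRPC mouse 102 (3.32 TPM, next 5.53), RAB3B in POST-CX mouse 18 (6.99 TPM, next 11.5) and UAP1 in CRPC mouse 81 (198 TPM, next 127).

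For 22 genes the change from CRPC to ENZS differed from that from PRE-CX to POST-CX in a direct test of the 2 changes. The difference, in log2 units, was 0.85 for TPD52, 0.86 for SORD, 1.01 for NCAPD3, 1.09 for RAB3B, 1.10 for ERRFI1, 1.31 for PART1, 1.32 for ELL2, 1.32 for HOMER2 and 1.34 for ALDH1A3. It was 1.68 for PMEPA1, 1.84 for FKBP5, 1.88 for LIFR, 1.90 for GNMT, 1.98 for MAF, 2.00 for NDRG1 and 2.00 for ACSL3. The others were 2.12 for CHRNA2, 2.13 for TRPM8, 2.25 for SPOCK1, 2.48 for HERC3, 3.62 for HPGD and 3.63 for STEAP4. All 22 are positive, which means a larger fall, or a smaller rise, from PRE-CX to POST-CX than from CRPC to ENZS. For STEAP4, HPGD and CHRNA2 the CRPC mean (1.05, 0.76 and 1.58 in log2 units) was smaller than the castration fall, which fixed the sign of the difference, and their values are given as a description only. For TRPM8 and MAF the CRPC mean (2.56 and 2.23) was only slightly above the castration fall (2.50 and 2.00), which left little room for an equal second fall.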

How the results depend on the processing

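The count of genes lower after castration (31) and in CRPC against PRE-CX (30) stayed within 1.5 times under each alternative run. The CRPC count was at the edge of that rule with TPM as deposited, where it was 20. Fitting only the PRE-CX and POST-CX tumors gave 1 gene higher (BMPR1B), and leaving out the 9 tumors under 80% human total gave 1 gene (UAP1) lower in CRPC than in POST-CX, in place of 0 in both cases. ENZS against CRPC, with 6 genes past the threshold (3 lower, 3 higher), gave 0 with TPM as deposited (0 lower, 0 higher), 6 lower and 0 higher after centring, 1 lower without an expression filter and 1 lower without the 9 tumors. ENZR against CRPC, with 10 genes (8 lower, 2 higher), gave 3 with TPM as deposited (3 lower, 0 higher), 6 without an expression filter (5 lower, 1 higher), 4 without the 9 tumors (2 lower, 2 higher) and 0 higher after centring. The cause of these shifts was not tested. Without an expression filter more genes enter the adjustment, 39909 in place of 17593. The 22 genes whose response steps differed became 15 with TPM as deposited and 23 after centring. Over 109 results on single genes, 1076 alternative values kept their direction in every case, and 65 of them no longer passed, 30 of these with TPM as deposited. CHRNA2, HPGD, MYBPC1 and STEAP4 had a mean under 5 TPM and no value under that filter. No paired analysis was possible because no mouse number is shared between groups. TPM keep no depth, so for genes near 0, such as CHRNA2 and STEAP4 in castrated tumors, counting error could not be set apart from the spread between tumors.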
